A study of Mus musculus with 4 samples.

Results

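The 8 genes described here are the mouse receptors for immunoglobulin G and the parts of the chain that carries their signal: the activating receptors Fcgr1, Fcgr3 and Fcgr4, the inhibitory receptor Fcgr2b, the neonatal receptor Fcgrt, the adaptors Fcer1g and Tyrobp, and the kinase Syk. They were taken by gene name from a table of 55401 genes, in which all 8 were found and all 8 had enough counts to be tested. RNA came from bone marrow-derived macrophages of C57BL/6 mice aged 8 weeks, grown with M-CSF, the growth factor that drives macrophage differentiation. In all libraries the macrophages had shared the culture with MC38, a mouse colon carcinoma line, for 24 h. The 2 control libraries (numbered 1 and 3) came from Mettl3fl/fl mice, whose Mettl3 gene is flanked by recombination sites. The 2 knockout libraries (also numbered 1 and 3) came from LysM-cre, Mettl3fl/fl mice, in which the lysozyme promoter drives the Cre recombinase in myeloid cells. Mettl3 encodes the enzyme that writes N6-methyladenosine on mRNA, and the comparison asks what macrophages express when it is deleted.

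Fc gamma receptors let a macrophage bind antibody-coated particles and tumour cells. The activating receptors have no signalling motif of their own and pair with the common gamma chain encoded by Fcer1g, whose ITAM (an immunoreceptor tyrosine-based activation motif) is phosphorylated by Src-family kinases and then docks the kinase Syk. Tyrobp, also called DAP12, carries an ITAM for other myeloid receptors such as Trem2 and feeds the same kinase. Fcgr2b instead carries an ITIM, the inhibitory counterpart, which recruits the phosphatase SHIP-1. Fcgrt encodes the neonatal Fc receptor, which pairs with beta-2 microglobulin and returns IgG from endosomes to the cell surface.

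The coding stretches of these motifs, which carry activating or inhibitory signals, are shown first. Fcgrt takes no part in this signalling. A script translated the coding sequence of each principal GENCODE M21 transcript (GRCm38) and searched it for an ITAM, read as a tyrosine, any 2 residues and a leucine or isoleucine, repeated after a gap of 6 to 12 residues. Fcer1g (chromosome 1, codons 65 to 79 of 86) and Tyrobp (chromosome 7, codons 92 to 106 of 114) each held 1 match, and the other 6 genes held 0. Each match spans the junction of exons 4 and 5 of 5. An ITIM was searched for in Fcgr2b only. It was read as isoleucine, leucine or valine, any residue, a tyrosine, any 2 residues and a leucine or valine. Fcgr2b held 1 ITIM at codons 317 to 322 of 340, in exon 8 of 8 (chr1:170961071-170961088, minus strand). Written 5′ to 3′ on the coding strand with the tyrosine codons in capitals, the stretches read as follows.
Fcer1g ITAM: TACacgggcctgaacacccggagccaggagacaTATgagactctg
Tyrobp ITAM: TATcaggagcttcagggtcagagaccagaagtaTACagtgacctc
Fcgr2b ITIM: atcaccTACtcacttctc

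Total counts ran from 55100415 to 79209870 per library, and the 8 genes took between 0.326% of them (control 3) and 0.473% (control 1). Across all tested genes each library was most like the one of its own number. Ddx3y, on the Y chromosome, stood at 72.1 and 89.1 CPM (counts scaled to library size with TMM factors, as everywhere here) in control 1 and knockout 1 and at 0.307 and 0.139 CPM in control 3 and knockout 3. Xist, expressed from an inactive X, stood at 0.589 and 0.624 CPM in the libraries numbered 1 and at 1351 and 1161 CPM in those numbered 3. Library number and this sex pattern therefore cannot be told apart, and differences are given pooled and within each number. The targeted gene Mettl3 had 18.3 and 23.2 CPM in controls 1 and 3 and 13.9 and 19.6 CPM in the knockouts (edgeR log2 fold change -0.31 ± 0.27, SE, n = 2 per group). A whole-gene count includes exons that may lie outside the deleted part, so this value does not check the genotype labels. The study text calls the libraries biological replicates. It does not say how they were paired across genotypes, and p-values measure only the spread between these 4 libraries.

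All 8 genes were expressed in every library, as macrophages express them. By FPKM, which divides by gene length and so allows genes to be compared, Tyrobp was highest at 769.6 ± 72.4 FPKM (mean ± SD over the 4 libraries). Fcer1g followed at 532.1 ± 94.4 FPKM and Fcgr3 at 465.1 ± 206.7 FPKM. Fcgr1 at 187.0 ± 25.3 FPKM and Fcgr4 at 176.7 ± 68.4 FPKM stood next, then Syk at 80.9 ± 3.77, Fcgr2b at 58.0 ± 31.0 and Fcgrt at 30.2 ± 12.3 FPKM. The ranges over the libraries overlapped between Fcer1g and Fcgr3, between Fcgr1 and Fcgr4, between Syk and Fcgr2b and between Fcgr2b and Fcgrt, so those neighbours are not ordered beyond their spread. By FPKM the other neighbours did not overlap. The length behind FPKM was close to that of all annotated exons joined. For Fcgr2b it came to between 6408 and 6483 bases, against 5790 bases of joined exons and 3544 bases of its principal transcript. Per kilobase of principal transcript the order of the 8 means was the same, with Syk at 164.5 and Fcgr2b at 105.7 CPM per kilobase. On that scale the ranges of Fcgr4 (115.5 to 277.9) and Syk (157.4 to 176.6) overlapped. Those of Tyrobp (919.1 to 1129) and Fcer1g (630.0 to 963.1) did so too. The separation of these pairs by FPKM therefore depends on the length used.

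**Figure D1:**
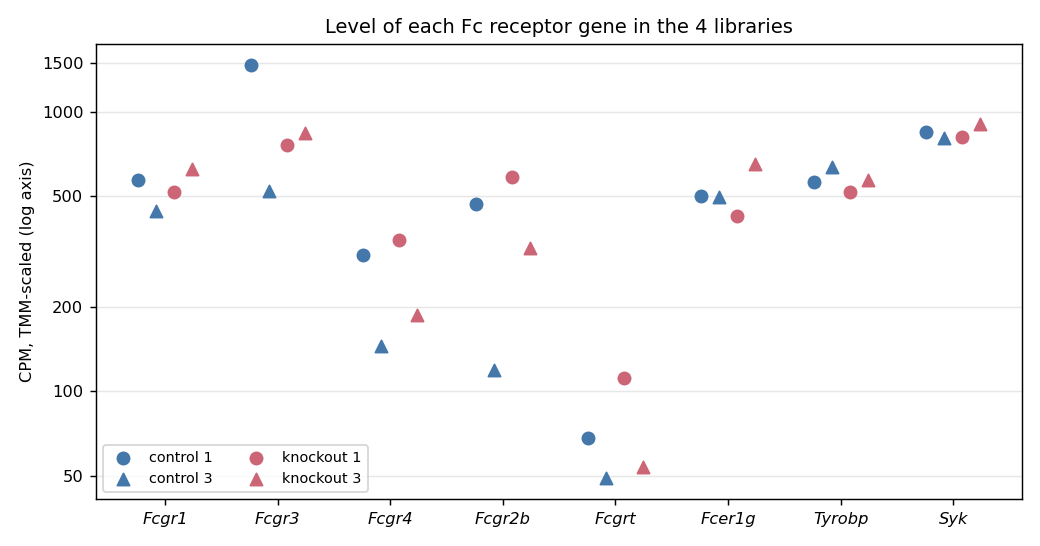
Level of the 8 genes in CPM on a log axis, 1 point per library, with controls in blue, knockouts in red, circles for number 1 and triangles for number 3. Fcgr2b, Fcgr4 and Fcgrt have both number 3 libraries under both number 1 libraries, while Syk and Tyrobp lie close together in all 4.

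Between genotypes, none of the 8 genes passed the test in the fit of 2 libraries against 2. The edgeR quasi-likelihood test called 0 of the 8 at an adjusted p under 0.05 and 0 at an unadjusted p under 0.05. The smallest unadjusted p was 0.280 (Fcgrt) and the largest 0.784 (Syk), with an adjusted p of 1.00 for each by edgeR. Over all 17260 genes tested, edgeR called 0 (0.0%), with 391 at an unadjusted p under 0.05, so the count of 0 among the 8 sets them apart from no other genes. DESeq2 called 74 genes (0.416% of those given an adjusted p) and likewise 0 of the 8. In 0 of the 8 genes did both knockouts exceed both controls (13.1% of all tested genes did), and in 0 did both fall short of them (13.4% did). Each standard error below rests on 2 libraries per group. Genotype values below with 1 library left out set a single number in 1 group against both numbers in the other. The difference between numbers therefore enters them. Pooled log2 fold changes were above 0 for 6 genes and below 0 for Fcgr3 and Tyrobp.

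Of the activating receptors, Fcgr1 (ENSMUSG00000015947, chromosome 3, 96282909 to 96293969, minus strand) encodes the high-affinity receptor that binds monomeric IgG. It stood at 572.4 CPM for control 1 and 443.1 for control 3, while knockout 1 had 515.8 and knockout 3 had 624.9 CPM. The knockout was lower within number 1 and higher within number 3, by log2 differences of -0.15 and 0.50. The pooled log2 fold change was 0.17 ± 0.22 (SE; unadjusted p = 0.481 by edgeR). It was at -0.00140 without control 3.

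Fcgr3 (ENSMUSG00000059498, chromosome 1, 171051174 to 171064935, minus strand), a low-affinity receptor for immune complexes, was the receptor with the highest level. It stood at 1476 CPM for control 1 and 519.8 for control 3, while knockout 1 had 764.1 and knockout 3 had 843.2 CPM. The 2 controls were the highest and the lowest of the 4 libraries, and both knockouts lay between them. The knockout therefore stood at 0.518 times its control within number 1 and at 1.62 times its control within number 3. The pooled log2 fold change of -0.31 ± 0.52 (SE; unadjusted p = 0.575 by edgeR) became 0.64 when control 1 was left out and -0.87 when control 3 was.

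Fcgr4 (ENSMUSG00000059089, chromosome 1, 171018920 to 171029761, plus strand), a receptor of intermediate affinity for IgG2 subclasses, stood at 306.9 CPM for control 1 and 145.1 for control 3, while knockout 1 had 349.1 and knockout 3 had 188.0 CPM. Each knockout stood slightly above the control of its number, with log2 differences of 0.19 within number 1 and 0.37 within number 3. The libraries split by number and not by genotype. The pooled log2 fold change was 0.25 ± 0.48 (SE; unadjusted p = 0.629 by edgeR). It was -0.19 without control 3 and -0.25 without knockout 1, values that the difference between numbers enters.

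The inhibitory receptor Fcgr2b (ENSMUSG00000026656, chromosome 1, 170958617 to 170976547, minus strand) varied most of the 8. It stood at 467.6 CPM for control 1 and 119.7 for control 3, while knockout 1 had 585.4 and knockout 3 had 326.2 CPM, a 4.89-fold span. Among the 8695 tested genes with a mean of at least 10 CPM, 97.7% had a smaller span between their highest and lowest library on the log2 scale. The knockout was 1.25-fold higher within number 1 and 2.73-fold higher within number 3. Pooled, the log2 fold change was 0.63 ± 0.71 (SE; unadjusted p = 0.413 by edgeR). It was -0.03 without control 3, the lowest library, and 1.93 without control 1. Leaving out knockout 1 gave 0.17, and leaving out knockout 3 gave 1.00. The difference between numbers enters these left-out values. With library number, which carries the pattern of Xist and Ddx3y, as a term in the fit, DESeq2 called Fcgr2b (0.89, adjusted p = 0.0438; 1.1% of all genes were called in that fit) and edgeR did not (unadjusted p = 0.0403, adjusted p = 0.922).

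Fcgr2b and Fcgr3 are near copies of each other outside the part that signals, and their sequences are set side by side because reads could be shared between them. Over 784 aligned bases of coding sequence they were 82.9% identical, with an identical run of 129 bases, while every other pair of the 4 receptors lay between 54.95% and 62.7%. No window of 150 bases, the length of a read, was the same in the transcripts of both genes. Of the windows of 50 bases, 9.58% of those of Fcgr3 and 2.92% of those of Fcgr2b were. The sources used here do not say how reads with several matches were counted, so the split of counts between these genes is uncertain to that extent. The most alike 90 coding bases that still differ lie in exon 3 of each gene, at chr1:170968014-170968103 for Fcgr2b and chr1:171057725-171057814 for Fcgr3 (GRCm38, minus strand). The capital marks the single mismatch.
Fcgr2b: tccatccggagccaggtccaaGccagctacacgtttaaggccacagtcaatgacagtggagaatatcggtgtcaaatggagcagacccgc
Fcgr3: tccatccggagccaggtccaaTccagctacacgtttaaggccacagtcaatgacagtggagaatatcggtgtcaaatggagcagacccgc

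Fcgrt (ENSMUSG00000003420, chromosome 7, 45092990 to 45103851, minus strand), which recycles IgG, had the lowest mean FPKM of the 8, although in control 3 its 21.2 FPKM exceeded the 18.8 FPKM of Fcgr2b. It stood at 68.3 CPM for control 1 and 48.9 for control 3, while knockout 1 had 111.9 and knockout 3 had 53.7 CPM. Knockout 1 was the highest library, and the other 3 lay between 48.9 and 68.3 CPM. Each knockout stood above the control of its number, by log2 differences of 0.71 and 0.14, and the pooled value was 0.50 ± 0.41 (SE; unadjusted p = 0.280 by edgeR). Without knockout 1 it turned to -0.11. It was 0.28 without control 3, 0.76 without control 1 and 0.93 without knockout 3.

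The adaptors and the kinase differed less between libraries than the receptors Fcgr2b, Fcgr3 and Fcgr4. The receptor Fcgr1, with a log2 span of 0.50, differed less than Fcer1g, with 0.61. Fcer1g (ENSMUSG00000058715, chromosome 1, 171229572 to 171234365, minus strand), the common gamma chain, stood at 501.7 CPM for control 1 and 495.1 for control 3, while knockout 1 had 424.6 and knockout 3 had 649.1 CPM. The knockouts lay on either side of the controls, which were nearly equal. Its log2 fold change of 0.11 ± 0.26 (SE; unadjusted p = 0.693 by edgeR) turned to -0.23 without knockout 3 and was 0.40 without knockout 1.

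Tyrobp (ENSMUSG00000030579, chromosome 7, 30413760 to 30417582, plus strand) stood at 559.6 CPM for control 1 and 636.7 for control 3, while knockout 1 had 518.4 and knockout 3 had 568.4 CPM. It was the only one of the 8 with the knockout below its control within both numbers, by log2 differences of -0.11 and -0.16. Such a pattern held for 27.2% of all tested genes. The pooled value was -0.14 ± 0.17 (SE; unadjusted p = 0.468 by edgeR), and between -0.22 and -0.04 with any 1 library left out.

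Syk (ENSMUSG00000021457, chromosome 13, 52583173 to 52648792, plus strand) stood at 849.8 CPM for control 1 and 806.0 for control 3, while knockout 1 had 810.7 and knockout 3 had 904.5 CPM. The highest library was 1.12-fold above the lowest, and only 8.21% of tested genes with a mean of at least 10 CPM had a smaller span. The log2 fold change was 0.05 ± 0.17 (SE; unadjusted p = 0.784 by edgeR), and -0.03 without knockout 3.

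**Figure D2:**
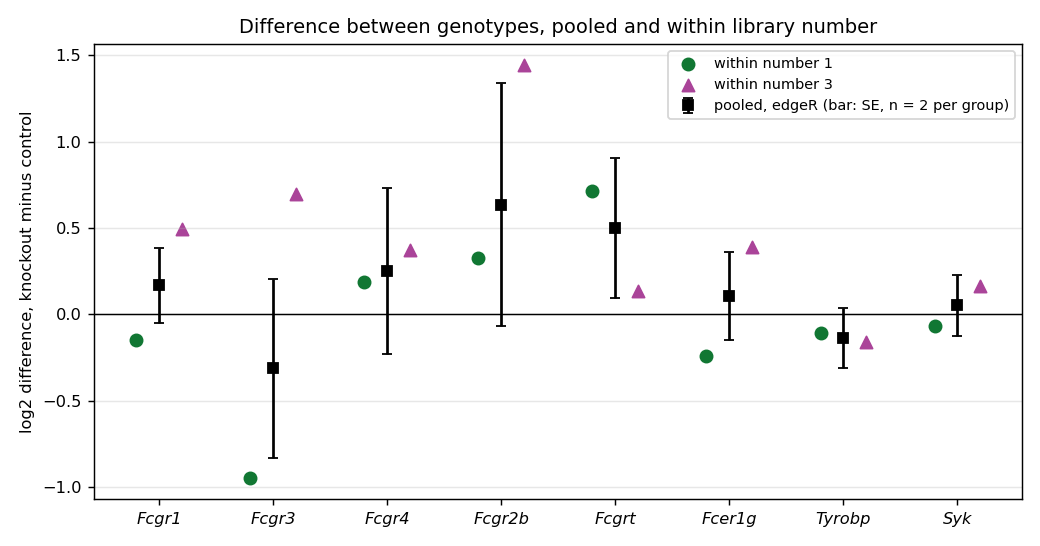
Log2 difference in CPM of knockout minus control for each gene, within number 1 (circles), within number 3 (triangles) and pooled by edgeR (squares, bars for the SE, n = 2 per group). Fcgr1, Fcgr3, Fcer1g and Syk lie on opposite sides of 0 within the 2 numbers, and Fcgr2b shows its largest difference within number 3.

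Set within numbers, Fcgr2b, Fcgr4 and Fcgrt (3 of 8) were higher in the knockout in both, against 25.8% of all tested genes. For 4 of the 8, Fcgr1, Fcgr3, Fcer1g and Syk, the sign differed between the numbers, against 47.0% of all tested genes. Those shares do not set the 8 apart from the background. With 1 library per genotype in each number, whether the genotype difference itself differs between numbers could not be tested.

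Set by library number, 4 of the 8 genes had groups that did not overlap, and by genotype 0 had. Both libraries numbered 3 lay below both numbered 1 for Fcgr2b, Fcgr4 and Fcgrt (3 of 8), a pattern seen in 25.2% of all tested genes. Tyrobp had the reverse pattern, seen in 26.2%. By genotype, the knockouts lay above the controls in 13.1% of all tested genes and below them in 13.4%. Given the shares by number, the count of 4 does not set the 8 apart from the background. Fcgr4 was 2.12-fold higher in number 1 among the controls and 1.86-fold higher among the knockouts, a log2 fold change (number 3 against number 1) of -0.98 ± 0.17 (SE). By edgeR its adjusted p was 0.0844, and DESeq2 called it (adjusted p = 1.2e-04). Fcgrt had a log2 fold change of -0.81 ± 0.25 (SE; edgeR adjusted p = 0.199; DESeq2 adjusted p = 0.0409), and -0.40 by edgeR without knockout 1. Fcgr2b was 3.91-fold higher in number 1 among the controls and 1.79-fold higher among the knockouts. The pooled log2 value of -1.24 ± 0.48 (SE) was not called (edgeR adjusted p = 0.274; DESeq2 adjusted p = 0.355). With genotype as a term in the fit it was -1.40, which DESeq2 called (adjusted p = 2.37e-06; 7.29% of all genes were called in that fit) and edgeR did not (adjusted p = 0.148). Without knockout 3 it was -2.13, and without control 3 it was -0.68. The 9 B cell markers, of a lineage that expresses Fcgr2b, were also higher in number 1 (summed 60.6 and 78.7 CPM against 28.0 and 40.3 CPM in number 3), with Ighd at 0, and their part in the Fcgr2b values was not tested.

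Over all genes, edgeR called 177 between the numbers (1.03%; between 1 and 87 with any 1 library left out), 0 of them among the 8, and DESeq2 called 1572 (8.62%), of which Fcgr4 and Fcgrt are 2. Fcgr3 was lower in number 3 among the controls by a log2 difference of -1.51 and higher among the knockouts by 0.14. Its pooled value of -0.72 ± 0.39 (SE) was -0.15 without control 1 and was not called by edgeR (adjusted p = 0.414). Fcgr1, Fcer1g, Tyrobp and Syk had pooled log2 fold changes between -0.03 and 0.30. Because number goes with the levels of Xist and Ddx3y, the number contrast is also a contrast of the 2 sex patterns. In bulk RNA, fewer cells of a type and less RNA per cell cannot be told apart.

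**Figure D3:**
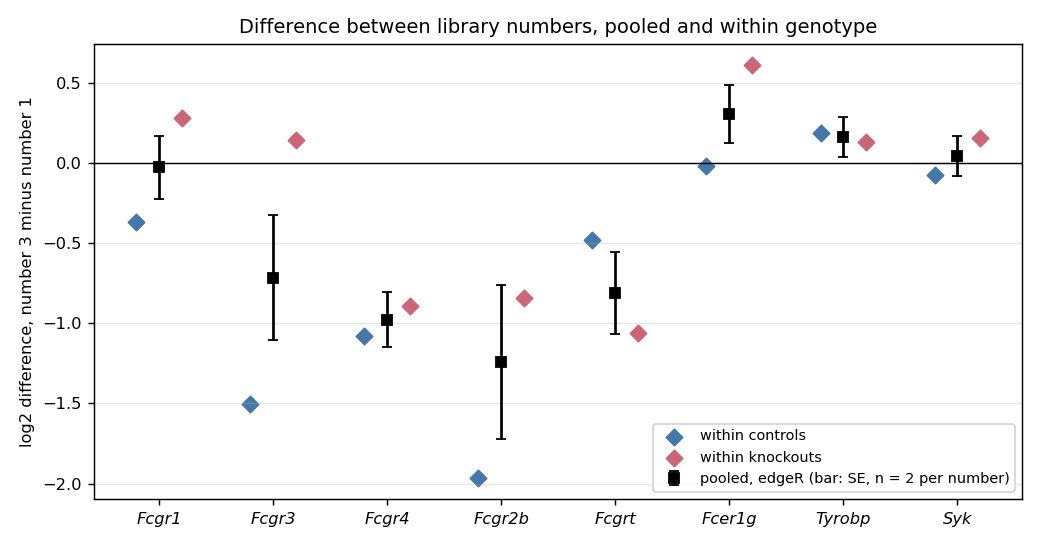
Log2 difference in CPM of number 3 minus number 1 for each gene, within controls (blue), within knockouts (red) and pooled by edgeR (squares, bars for the SE, n = 2 per number). Fcgr4, Fcgr2b and Fcgrt lie below 0 in both genotypes, and Fcgr3 does so in the controls but not in the knockouts.

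The balance of activating to inhibitory receptor, which sets the threshold for a response to immune complexes, was read as a ratio of FPKM and given no test, as a description of chosen genes. The summed FPKM of Fcgr1, Fcgr3 and Fcgr4 was 16.3 times that of Fcgr2b in control 1 and 28.4 times in control 3, while it was 9.07 times in knockout 1 and 15.6 times in knockout 3. Both knockouts lay below both controls, though knockout 3 and control 1 were close. The mean log2 ratio was 4.43 ± 0.57 in the controls and 3.57 ± 0.55 in the knockouts (SD, n = 2 per group), a difference of -0.86. Within number 1 the difference was -0.85 and within number 3 it was -0.87. It was -0.46 without control 3 and -0.47 without knockout 1, and -1.25 without control 1 and -1.25 without knockout 3. The ratio also differed by library number to a like extent, with log2 values of 4.03 and 4.83 in controls 1 and 3 and of 3.18 and 3.96 in knockouts 1 and 3.

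The receptors that differed most were not the same in the 2 numbers. Within number 1, Fcgr3 was lower in the knockout while Fcgr2b was slightly higher, and within number 3 all 4 receptors were higher in the knockout, Fcgr2b most. Fcgr2b made up 5.78% of the summed FPKM of the 4 receptors in control 1 and 3.41% in control 3, while its share was 9.93% in knockout 1 and 6.04% in knockout 3. The share of Fcgr3 was 60.9% and 49.4% in the controls and 43.2% and 52.1% in the knockouts. Fcgr3 over Fcgr2b was 10.5 and 14.5 in the controls against 4.35 and 8.62 in the knockouts, and these are the 2 genes with shared sequence. Fcgr1 over Fcgr2b, a pair with no shared window of 50 bases, was 2.74 and 8.28 against 1.97 and 4.29, lower in the knockout within each number but overlapping between groups. Fcgr4 over Fcgr2b, also a pair with no such window, was 3.03 and 5.59 in the controls. In the knockouts it was 2.75 and 2.66, both below both controls, with knockout 1 and control 1 close.

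The supply of the signalling chain relative to its receptors did not follow genotype. Fcer1g over the summed FPKM of the 3 activating receptors was 0.436 in control 1 and 0.967 in control 3, while knockout 1 had 0.530 and knockout 3 had 0.847. Both number 3 libraries lay above both number 1 libraries, and the mean log2 difference between genotypes was 0.04. That difference was 0.62 without control 3 and -0.53 without control 1.

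**Figure D4:**
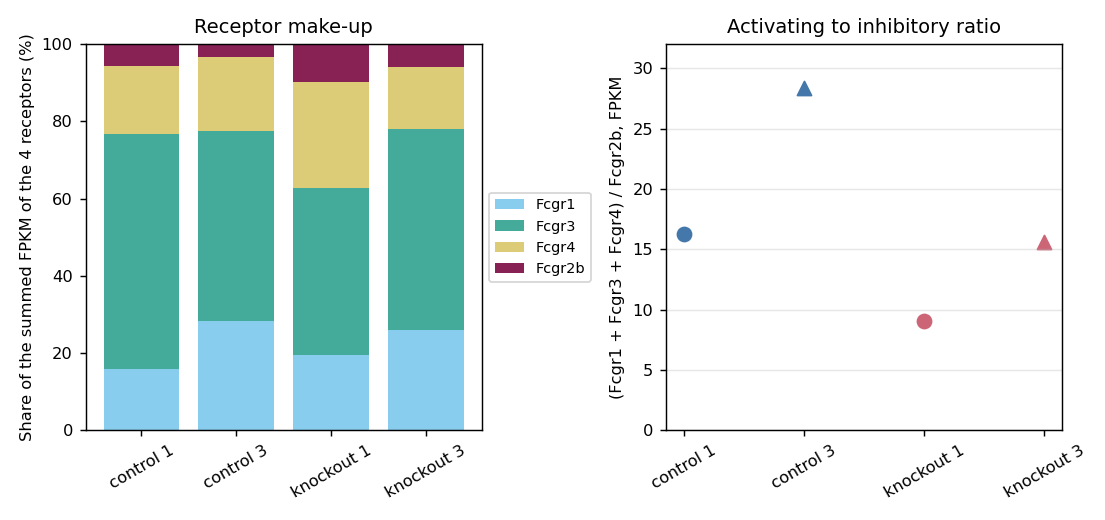
Left, share of the summed FPKM of the 4 Fc gamma receptors held by each, in percent, per library; right, FPKM of Fcgr1, Fcgr3 and Fcgr4 together over that of Fcgr2b, with circles for number 1 and triangles for number 3. The ratio runs from 9.07 in knockout 1 to 28.4 in control 3, and each knockout lies below both controls.

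Of the kinases, adaptors, inhibitors and actin regulators that act downstream of the receptors, 0 passed the test between genotypes. Over all 17260 tested genes edgeR also called 0, and DESeq2 called 0.416% of those given an adjusted p. Counts of 0 in these lists therefore do not set them apart from other genes. Of the 26 tested proximal kinases and adaptors, edgeR and DESeq2 called 0, and the median log2 fold change was 0.04, beside -0.001 over all tested genes. The adaptors with the highest FPKM were Pik3ap1, which links receptors to PI3 kinase, at 911.3 and 1285 CPM in the controls and 1094 and 1525 CPM in the knockouts, and Fyb, at 636.2 and 820.3 against 697.1 and 1001 CPM. Among 18 tested inhibitors of the pathway 0 were called by either tool and the median was 0.03. Ptpn6, the phosphatase SHP-1, stood at 399.9 and 522.1 against 513.4 and 520.3 CPM, and Pirb, an ITIM receptor, at 851.5 and 885.2 against 700.7 and 862.7 CPM. The 20 genes of the phagocytic cup, led by Arpc2 and Cdc42, had a median of 0.01 with 0 called by either tool. At an unadjusted p under 0.05 edgeR found 0 genes in these 3 lists, against 391 of all 17260 tested genes.

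A list of other myeloid receptors of this kind, most of which signal through Fcer1g or Tyrobp, had log2 fold changes between -0.43 and 1.06. It also holds the adaptor Hcst and the lectins Clec7a and Clec1b, which carry a motif of their own. Of 24 tested, edgeR and DESeq2 called 0 (2 at an unadjusted p under 0.05 by edgeR), 11 lay above 0 and 13 below, and the median was -0.03. Clec4d, a C-type lectin coupled to the common gamma chain, had 894.2 and 1132 CPM in controls 1 and 3 and 575.6 and 1208 CPM in the knockouts. Itgam, the integrin chain of complement receptor 3, stood at 3171 CPM for control 1 and 884.5 for control 3, while knockout 1 had 2669 and knockout 3 had 2119 CPM. Control 3 was thus the lowest library for Itgam, as it was for 6 of the 8 Fc receptor genes (all but Fcer1g and Tyrobp, and including Syk with its 1.12-fold span) and for 24.8% of all tested genes. Of 11 other antibody receptors only 4 had enough counts to test. Trim21, the cytosolic antibody receptor and an interferon-induced gene, stood at 36.1 and 33.6 against 45.2 and 60.0 CPM, a log2 difference of 0.59 ± 0.21 (SE; unadjusted p = 0.0381 and adjusted p = 1.00 by edgeR). Fcrl1 stood at 3.48 and 7.40 against 5.60 and 4.27 CPM.

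Fcgr1 is a textbook target of interferon gamma, and Fcgr4 is also known to respond to interferon, so both are set beside interferon-induced genes. Of 26 such genes tested, 24 had a log2 fold change above 0, the median was 0.97, and in 21 both knockouts exceeded both controls. Over all 17260 tested genes, 8603 lay above 0, and in 13.1% both knockouts exceeded both controls. By edgeR 0 were called (17 at an unadjusted p under 0.05), and DESeq2 called 7: Ifit1, Ifit2, Ifit3, Rsad2, Mx1, Cxcl10 and Rtp4. The median was 0.68 within number 1 and 1.29 within number 3. Fcgr1, at -0.15 and 0.50, and Fcgr4, at 0.19 and 0.37, lay below those medians within each number. Pooled values of the list ran from -0.60 to 2.21, with Irf8 (-0.60) and Ciita (-0.06) below 0. The pooled values of Fcgr1 (0.17) and Fcgr4 (0.25) lay inside that range. The list was not split by the type of interferon that induces each gene. Bst2 had 85.1 and 145.6 CPM in controls 1 and 3 against 132.0 and 204.2 CPM in knockouts 1 and 3, and Isg15 had 24.5 and 29.5 against 49.2 and 120.0 CPM.

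RefSeq promoter windows (GRCm38.p6, 250 bases before to 50 after the start) were held for 7 of the 8 genes, all but Tyrobp. They were searched on both strands for GAAA, any 2 bases, GAAA (the repeat of interferon-stimulated response elements) and GAGGAAGT (a site of the myeloid factor PU.1), which occur in 3.44% and 3.2% of all 32851 windows. The window of Fcgr4 held both of these motifs and is printed for that reason, with matches in capitals. Fcgr4 (chr1:171018676-171018975, plus strand) held 1 paired GAAA beginning at position -73 relative to the start and 1 GAGGAAGT, on the opposite strand, at position -24. A match is a description of the letters and not a measured binding site.
Fcgr4 promoter: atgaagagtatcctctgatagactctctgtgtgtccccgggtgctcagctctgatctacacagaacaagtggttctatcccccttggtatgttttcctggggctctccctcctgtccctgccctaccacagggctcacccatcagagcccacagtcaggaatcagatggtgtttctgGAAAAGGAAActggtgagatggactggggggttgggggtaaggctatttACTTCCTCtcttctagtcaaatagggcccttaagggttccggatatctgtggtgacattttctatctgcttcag

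**Figure D5:**
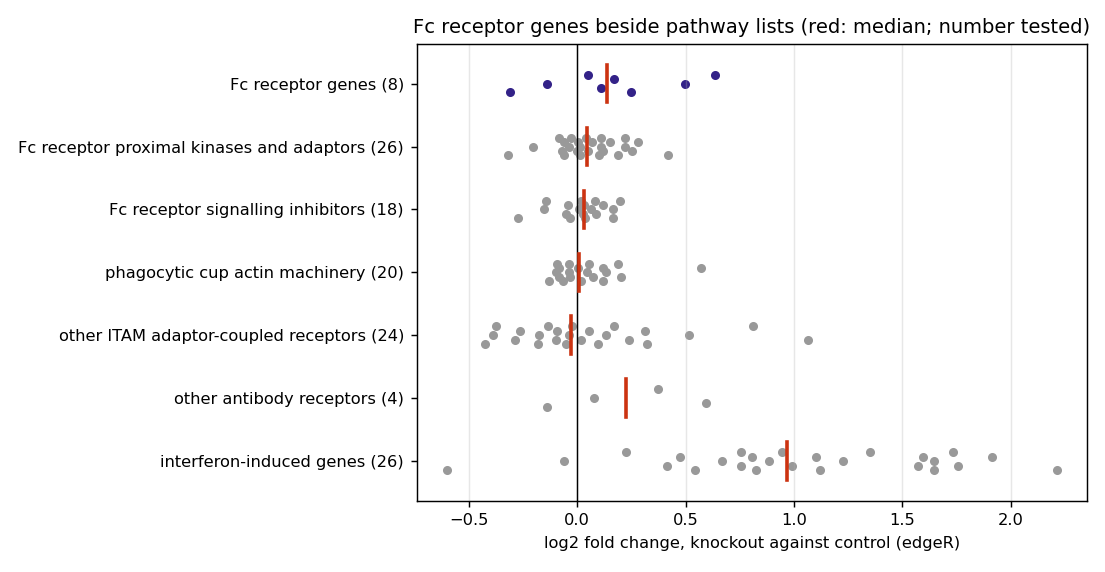
Log2 fold change of knockout against control by edgeR for the 8 Fc receptor genes (blue) and for each tested gene of 6 pathway lists (grey), with the median of each list in red and the number tested in brackets. The Fc receptor genes spread from -0.31 to 0.63 with a median of 0.14, and the interferon-induced genes have a median of 0.97.

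Fcgr2b, Fcgr4, Fcgr3 and Fcer1g lie within 275749 bases of chromosome 1, so their neighbours were read as well. Of 17 genes in that span 10 were tested, 6 of them no Fc receptor gene. Sdhc, a subunit of respiratory complex II between Fcgr3 and Fcer1g, stood at 81.4, 91.0, 95.4 and 87.6 CPM in control 1, control 3, knockout 1 and knockout 3, with a log2 difference between numbers of 0.01. Tomm40l stood at 17.4, 21.8, 18.5 and 22.3 CPM in the same order, with 0.29. Neither is lowest in control 3, where the 3 receptors are. Cfap126, at 0.404 CPM in control 3 and 0.663, 1.58 and 0.644 CPM in control 1, knockout 1 and knockout 3, is lowest there, with a log2 difference between numbers of -1.10. The other 3 (Pcp4l1, Nr1i3 and Apoa2) were lowest in knockout 3. Genes annotated across the receptors had at most 4 counts in any library (Gm38204, antisense to Fcgr2b).

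The genes whose pattern over the 4 libraries was most like that of the 3 most variable receptors were found by the distance between centred log2 CPM values, over 8370 genes. For Fcgr4 these were Hdac7, Scarb1 and Borcs6 (distances of 0.109, 0.113 and 0.136). For Fcgr3 they were Slc44a2, Aoah and Map1lc3b (0.186, 0.268 and 0.299). For Fcgr2b they were Cp, Il1rl2 and Foxred2 (0.333, 0.349 and 0.399). Aoah, a lipase that inactivates lipopolysaccharide, stood at 664.1, 270.0, 348.4 and 474.0 CPM in control 1, control 3, knockout 1 and knockout 3. With 4 libraries such likeness is a description and carries no test.

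The 10 macrophage markers were all well expressed, with a summed level of 40230 and 56350 CPM in the controls and 43140 and 44300 CPM in the knockouts. Other cells that carry these receptors were looked for. Among the B cell markers summed above, Ms4a1 reached at most 0.256 CPM. Ighm stood at 35.2 and 44.3 CPM in number 1 and at 4.41 and 2.33 CPM in number 3. Natural killer markers, of a cell that expresses Fcgr3, summed to at most 0.720 CPM, with Klre1, Gzma and Prf1 at 0. Mast cell and basophil markers summed to at most 2.73 CPM, with Fcer1a, Mcpt4, Cma1 and Tpsb2 at 0. Neutrophil markers summed to 14.8 and 18.7 CPM against 19.6 and 26.8 CPM, with Ly6g and Retnlg at 0.

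T cell markers summed to 17.7 and 24.6 CPM against 24.6 and 24.2 CPM, almost all from Cd4, with Cd3e and Cd8a at 0. Dendritic cell markers summed to between 4.13 and 5.68 CPM, with Cd209a at 0. Fibroblast markers, 9 in number and with 0 of them at 0 in all libraries, summed to 442.7 and 890.6 CPM in the controls. In the knockouts they summed to 349.9 and 569.7 CPM. The sum was highest in control 3, where 6 of the 8 genes were lowest, as were 24.8% of all tested genes. Col3a1 (124.2 CPM in control 1, 102.7 in control 3) and Lum (0.755 and 0.355 CPM) were instead highest in control 1. The other markers of the list were highest in control 3. Of the 8 epithelial markers, Epcam, Krt8, Krt18 and Cldn4 were at 0 and the sum reached at most 1.33 CPM. The part of fibroblast RNA in the receptor values was not tested.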

How the data were processed

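Poly(A) RNA of 4 libraries (2 controls, 2 knockouts) was read as pairs of 150 bases after dUTP strand marking, per the labels' protocols. Per the submitters' processing notes the tools were cutadapt 1.9, HISAT2 2.0.4, StringTie 1.3.4d, edgeR and DESeq2. The genome build and the use of strand in counting were not given in the sources used here. Among 55141 shared gene identifiers, 94.2% had the start and end of GENCODE M21 (GRCm38), as did 7 of the 8 genes (Tyrobp differed). The authors deposited estimated counts per gene, not normalized and already whole, and FPKM values scaled by length and library size, per the file headers. Between 38.7% and 39.55% of counts from 1 to 24 were multiples of 4, so a count may not be 1 fragment. A further 4 value columns matched no sample and were not used.

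Estimated counts were tested with edgeR 4.0.16 in R 4.3.3 (TMM, filterByExpr, quasi-likelihood test, two-sided, Benjamini-Hochberg over 17260 genes, threshold 0.05). The fit was also run on simulated counts. Their spread was estimated with library number as a term, which the main fit lacks, so that run is not used as support. Each standard error is the fold change over the root of F. Within-number values for single genes outside the 8 and for lists use log2 CPM with a prior count of 2. DESeq2 1.42.0, limma 3.58.1 on log2 FPKM, other scalings, no filter, fits with a replicate block and leaving each library out were alternatives. The 8 genes and the gene lists were chosen with earlier results of these data known. Named genes are the 8, the 2 with the highest mean FPKM of each list (or those that passed the test), the 3 nearest in pattern to each of the 3 most variable of the 8, and Mettl3, Xist and Ddx3y. Other names were chosen after their values were seen. A further motif was searched in the promoters and is not reported here.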

Additional observations from a re-analysis of the deposited data

Results flagged for a closer look

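For 4 of the 8 genes the knockout stood on opposite sides of its control in the 2 library numbers. The log2 difference between knockout and control was larger within number 3 than within number 1 by 1.648 for Fcgr3, by 0.646 for Fcgr1, by 0.631 for Fcer1g and by 0.234 for Syk. With 1 library per genotype in each number this difference was not tested. In Fcgr3 the 2 controls were the extremes, at 1476 and 519.8 CPM, and the knockouts at 764.1 and 843.2 CPM lay between them. For Syk all 4 libraries lay between 806.0 and 904.5 CPM.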

How the results depend on the processing

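Between genotypes 0 genes were called by edgeR under each scaling, with no filter, with counts divided by 4, with limma on FPKM at each pseudocount and with any 1 library left out. DESeq2 called 74, and 175 with a replicate block. EdgeR with the replicate block called 0 (929 at an unadjusted p under 0.05). Same-numbered libraries deviated together (correlation 0.419 over 17260 genes), but with 2 pairs and no label the numbers were not taken as pairs. With the block Fcgr2b was called by DESeq2 (log2 fold change 0.89, adjusted p = 0.0438) and not by edgeR (0.88, adjusted p = 0.922), and no other of the 8 was called by either. With all libraries kept, 0 of the 72 recomputed genotype values of the 8 genes changed sign. With 1 left out, where the lone library is taken to be as variable as the other group, 8 of 32 did. Such a fit has a single number in 1 group, so the difference between numbers enters its values. The ranges were -0.00140 to 0.372 for Fcgr1, -0.034 to 1.93 for Fcgr2b, -0.87 to 0.64 for Fcgr3, -0.25 to 0.89 for Fcgr4, -0.23 to 0.40 for Fcer1g, -0.11 to 0.93 for Fcgrt and -0.031 to 0.145 for Syk. Between library numbers, where edgeR called 177 genes, DESeq2 called 1572 (1230 with genotype as a block), edgeR with no filter 375, limma on log2(FPKM + 1) 104, and edgeR with 1 library left out 1 to 87. There the left-out ranges were -0.29 to 0.21 for Fcgr1 and -0.040 to 0.130 for Syk. The difference in the activating to inhibitory ratio was -0.86 with CPM, -0.83 with 1 added to each FPKM sum and -0.88 per kilobase of principal transcript (added after the data were seen, as were counts divided by 4 and DESeq2 with a block), and -1.25 to -0.46 with 1 library left out. The cause of these differences between settings was not tested.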

Other observations

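Of the genes listed around the Fc receptors, a few are named here for their values by genotype or by library number. Trem3 and Treml4, activating receptors of the Trem family coupled to Tyrobp (chosen after their values were seen), had higher values in both knockouts than in both controls. Trem3 was at 5.28 and 4.18 CPM in the controls and 9.42 and 10.4 CPM in the knockouts (log2 fold change 1.06 ± 0.28, SE, n = 2 per group; edgeR unadjusted p = 0.0154), and Treml4 at 6.85 and 7.20 against 11.4 and 13.3 CPM (0.81 ± 0.24; edgeR unadjusted p = 0.0232). Neither passed adjustment over all genes. Trem1, which amplifies inflammatory signals, followed library number, at 28.7 and 22.2 CPM in number 1 and 5.55 and 3.36 CPM in number 3 (edgeR adjusted p = 0.0497). Grb2, an adaptor of growth factor and Fc receptor signalling, did so in the other direction, at 106.2 and 121.7 CPM in number 1 and 291.2 and 309.4 CPM in number 3 (edgeR adjusted p = 0.0299).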
